A study of Mus musculus with 7 samples.

Results

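The genes described here act at the cell surface, where a cell receives or limits a Hedgehog signal. They are the receptor Ptch1, the signal transducer Smo, the ligand-binding antagonist Hhip, the co-receptors Boc, Cdon and Gas1, and Disp1, which releases the ligand from the cells that make it. Every probe set that the platform annotation gives to exactly 1 of these 7 genes, of 18193 genes so named, was taken, which yielded 20 of 45037 probe sets: 4 for Hhip, 3 each for Ptch1, Smo, Boc and Gas1, and 2 each for Cdon and Disp1. A probe set is a group of short probes read together as 1 value, and probe sets of the same gene are not independent.

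In the Hedgehog pathway, Ptch1 keeps Smo inactive until a Hedgehog ligand binds Ptch1, after which Smo drives the Gli transcription factors. Boc, Cdon and Gas1 present the ligand to Ptch1, while Hhip binds it and withholds it. Gli activity induces Ptch1 and Hhip, which makes them feedback inhibitors, whereas Gas1, Boc and Cdon are known in other tissues as genes that the pathway represses. In the developing cerebellum, Sonic hedgehog from Purkinje cells keeps granule neuron precursors dividing, and loss of Ptch1 in these cells leads to medulloblastoma.

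Both groups were granule neuron precursors isolated from mouse cerebella without culture and carried the same genotype, Math1-Cre/Ptc-loxp/Nestin-CFP. Math1-Cre acts in the granule neuron lineage, where it removes the loxP-flanked Ptch1 gene, and Nestin-CFP is a fluorescent reporter by which cells were sorted. Nestin-positive cells were measured on 4 arrays (replicates 1, 3, 4 and 5) and Nestin-negative cells on 3 (replicates 1, 4 and 5), with 1 sample on each Affymetrix whole-genome array. The sample labels give postnatal day 7 and the tissue as medulloblastoma, whereas the text of the series gives postnatal day 4. All arrays used here came from this genotype. The values thus compare its 2 fractions and say nothing of a change from normal cells. Whether Ptch1 was lost in every cell of a fraction was not tested. The labels do not tie the samples to separate animals, and p-values therefore measure the spread between these samples, which may be technical.

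All 6 markers of granule neuron precursors tested (Atoh1, Barhl1, Zic1, Pax6, Meis1 and Neurod1) lay at or above the array median, the middle signal of all probe sets of an array, on all 7 arrays, and Gabra6, of mature granule neurons, lay below it on all 7. The 6 precursor markers summed to 46908 to 54495 on Nestin-positive and 58415 to 60396 on Nestin-negative arrays. These sums mostly reflect the brightest genes, Zic1 (mean 19178.5 against 21647.9) and Neurod1 (14649.6 against 20887.3), both lower in Nestin-positive cells. The 6 markers went both ways. In a fit with a term for each replicate number (the replicate block), Atoh1 and Barhl1 rose and the other 3 besides Neurod1 were not called. Neurod1 fell, as did 6 of the 7 markers of differentiating granule neurons tested. Signals of markers of differentiating granule neurons, summed over 7 genes, ran from 17799 to 24029 on Nestin-positive and from 27811 to 33965 on Nestin-negative arrays. The 9 microglia and macrophage markers tested summed to 291 to 1094 and 2077 to 7925, and none of the 12 listed lay below the array median on all arrays. Summed pericyte markers (8 genes) ran from 636 to 2101 and from 1372 to 9685, and meningeal fibroblast markers (5 genes) from 3546 to 5463 and from 4988 to 10812. Summed astrocyte and Bergmann glia markers (10 genes) overlapped more widely, 7360 to 28148 against 6311 to 18921, with the highest sum on Nestin-positive replicate 3. With the block, which takes nothing from that array, 5 of the 10 fell and 2 rose, where 6.39% and 3.58% of all genes did. The 6 endothelial markers (355 to 1337 against 454 to 1414) and the 5 of the oligodendrocyte lineage (2905 to 4164 against 3407 to 3684) overlapped too, while the 2 of GABAergic interneurons (4.27 to 130 against 377 to 686) did not. These 2, Gad1 and Tfap2b, reached the array median on 0 and 1 Nestin-positive arrays and on 3 Nestin-negative arrays each. The filter of 3 such arrays thus kept them through the Nestin-negative group, which favours such a gap. Gad2, Slc32a1 and Lhx5 were not tested. Of the microglia markers, C1qc and Lyz2 (0 and 3 arrays) and Cx3cr1, C1qa and C1qb (1 and 3) passed in the same way. Cspg4 stands in both the pericyte and the oligodendrocyte list, and Atoh1 is both a precursor marker and a listed target of the pathway. In such sorted fractions, fewer cells of a type and less RNA per cell cannot be told apart.

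The sequences just upstream of Hhip, Gas1 and Ptch1 are shown because these are the genes whose signals separated the fractions on their brightest probe set. RefSeq promoter windows (GRCm38.p6) were found for 6 of the 7 genes, all but Boc, and hold 250 bases before and 50 after a transcript start. Only bases before the start are printed, 5′ to 3′ on the gene's strand. For Hhip they end where the annotated gene begins, 198 bases in all, and the Ptch1 window lies inside the span of the gene, before the start of 1 of its transcripts. Capitals mark CCACCC, the core of the Gli consensus GACCACCCA, searched on both strands.
Hhip (chr8:80058061-80058258, strand -): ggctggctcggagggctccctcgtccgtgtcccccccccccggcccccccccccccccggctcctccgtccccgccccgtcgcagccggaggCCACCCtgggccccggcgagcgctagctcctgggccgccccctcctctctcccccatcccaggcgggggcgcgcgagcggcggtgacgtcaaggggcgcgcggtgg
Gas1 (chr13:60177536-60177785, strand -): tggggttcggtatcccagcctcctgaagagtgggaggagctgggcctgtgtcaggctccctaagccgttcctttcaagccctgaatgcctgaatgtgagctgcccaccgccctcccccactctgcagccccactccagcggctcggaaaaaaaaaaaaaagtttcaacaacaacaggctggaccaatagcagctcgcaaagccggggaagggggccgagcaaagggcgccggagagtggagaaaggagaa
Ptch1 (chr13:63565736-63565985, strand -): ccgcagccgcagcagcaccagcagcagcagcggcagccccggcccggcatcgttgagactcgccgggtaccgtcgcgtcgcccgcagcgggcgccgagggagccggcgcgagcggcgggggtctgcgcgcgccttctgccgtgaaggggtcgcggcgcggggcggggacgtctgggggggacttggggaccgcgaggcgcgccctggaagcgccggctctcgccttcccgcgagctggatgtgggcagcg
Counted from the transcript start of each window, which for Hhip lies beyond the last printed base, inside the annotated gene, the core began 158 bases before the start in Hhip and 162 bases before it in Smo, and it was found in 2 of the 7 windows of the 6 genes (Disp1 has 2 windows). It was found in 28.1% of all 32851 windows, counted over the 250 bases before the start. The full GACCACCCA, which contains the core, occurred in 0.253% of all windows and in 6.74% with up to 1 mismatch, over all 300 bases, and in 0 of the 7 windows here. A match is a run of letters and not a known binding site, and these windows leave out distant enhancers.

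Hhip, which binds Hedgehog ligands at the surface and is itself a target of the pathway, had the largest difference of the 7 genes. Its signal was 1.96 times as high in Nestin-positive cells. Its brightest probe set was the only call among the 7 genes in the fit over genes without the replicate block. All 4 of its probe sets, which are not independent, were higher on each Nestin-positive array than on any Nestin-negative array. Of all probe sets tested, 4.66% were so. On that probe set, 1455277_at, the Nestin-positive signals were 1035, 1012, 829 and 717 (replicates 1, 3, 4 and 5), and the Nestin-negative signals were 414, 546 and 408 (replicates 1, 4 and 5). The highest Nestin-negative array, replicate 4, thus stayed below the lowest Nestin-positive one, replicate 5. Means were 898 ± 152 (SD, n = 4) and 456 ± 78.1 (SD, n = 3), a log2 change of 0.97 ± 0.17 (SE) (limma over 11089 genes, adjusted p = 0.0403). An adjusted p under 0.05 is called here, and 0.171% of all genes were called higher.

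The other Hhip probe sets gave the same order of the fractions. Signals of 1437933_at were 675, 480, 532 and 352 in Nestin-positive and 346, 274 and 265 in Nestin-negative cells, a 1.70-fold difference. Signals of 1438083_at were 411, 260, 323 and 338 against 168, 228 and 148, 1.84-fold. Signals of 1421426_at were 307, 263, 323 and 247 against 207, 217 and 129, 1.58-fold. The narrowest gap was that of 1437933_at, where Nestin-positive replicate 5 barely exceeded Nestin-negative replicate 1. In exact two-sided permutation tests over the 35 splits of the arrays, p was 0.0286 for 3 of the 4 probe sets, the smallest value this design can give, and 0.0571 for 1437933_at.

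**Figure D1:**
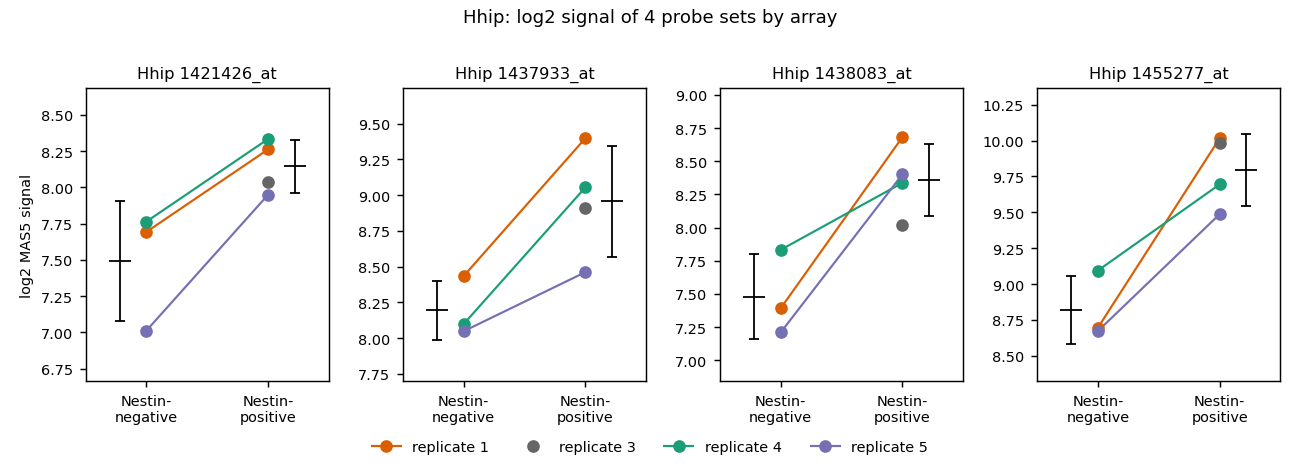
Log2 MAS5 signal of the 4 Hhip probe sets (vertical axes) on the Nestin-negative and Nestin-positive arrays. Points are arrays coloured by replicate number, lines join arrays of the same number, and bars beside the points are the mean ± SD of the group. In every panel all 4 Nestin-positive points lie above the 3 Nestin-negative points.

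The 3 samples that share a number across the fractions were compared within their pairs. On 1455277_at the log2 difference was 1.32 in pair 1, 0.60 in pair 4 and 0.81 in pair 5, so that the size varied although the direction did not. With the replicate block, a fit that rests on these 3 pairs and takes nothing from Nestin-positive replicate 3, Hhip rose by 0.91 ± 0.14 (SE) on the log2 scale (limma, adjusted p = 0.000149), and 3.58% of all genes were called higher. All 4 Hhip probe sets passed in the blocked fit over 23585 probe sets (adjusted p from 0.0037 to 0.0426), where 1.26% were called higher and 3.01% lower. Without the block the call was fragile. The adjusted p of Hhip lay between 0.0546 and 0.156 with each of the 7 arrays left out, was 0.0701 after quantile normalization and 0.0905 with the mean of its probe sets (log2 change 0.82), and in the fit over all probe sets, which called 0 (2283 at an unadjusted p under 0.05), it was 0.137. The marker sums of differentiating neurons and microglia were lower in the fraction with more Hhip, without overlap. So was the precursor sum, which mostly reflects Zic1 and Neurod1, while Atoh1 and Barhl1 rose with the block. The sum of GABAergic interneurons was lower too, but the filter kept its genes, like some of the microglia, through the Nestin-negative arrays. The part of these cell types in the Hhip difference was not tested.

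Ptch1, the gene removed from this lineage, still gave a bright signal in both fractions. Its brightest probe set, 1428853_at, read 13180, 12780, 12999 and 12827 in Nestin-positive and 11511, 11606 and 10588 in Nestin-negative cells. The fractions did not overlap, but the difference was small: means of 12947 ± 182 (SD, n = 4) and 11235 ± 563 (SD, n = 3), or 1.15-fold. The log2 change of 0.21 ± 0.09 (SE) did not pass the threshold (limma, adjusted p = 0.327; 0.201 with the replicate block), and its 95% interval ran from 0.01 to 0.40. The exact two-sided permutation p was 0.0286. Within pairs the log2 difference was 0.16 to 0.28. The position of this probe set relative to the deleted part of the gene was not determined here, and a signal from outside that part says nothing of whether the deletion took place. Microglia marker sums, given above, were higher in Nestin-negative cells. Microglia lie outside the lineage in which Math1-Cre acts, and the part of such cells in the Ptch1 signal was not tested.

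A second Ptch1 probe set, 1439663_at, followed the replicate number more than the fraction. Its signal was 2219 on Nestin-positive and 1431 on Nestin-negative replicate 1, against 869, 553 and 575 on Nestin-positive replicates 3, 4 and 5 and 428 and 494 on Nestin-negative replicates 4 and 5. Both arrays of replicate 1 therefore stood above all others, and the fractions overlapped. The log2 change was 0.40 ± 0.58 (SE) over all arrays and 0.41 ± 0.13 (SE) with the block (limma over probe sets, adjusted p = 0.927 and 0.103), and -0.04 without Nestin-positive replicate 1. Within pairs it was 0.63, 0.37 and 0.22 for replicates 1, 4 and 5. Against 1428853_at on the same array, the log2 ratio of 1439663_at was -2.57 and -3.01 on replicate 1 of the Nestin-positive and Nestin-negative fraction and -4.76 to -3.88 on the other arrays, so the 2 probe sets did not move together.

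The third, 1450824_at, was dim. It lay below the array median on 6 of 7 arrays, was above it on Nestin-positive replicate 1 alone, and was not tested. Its signals were 136, 19.2, 33.7 and 30.6 in Nestin-positive and 87.0, 11.2 and 7.26 in Nestin-negative cells, again highest on replicate 1. Replicate 1 also had the highest array medians, 93.7 and 94.5 against 64.4 to 84.1 on the other arrays. Both its arrays were the highest of all in 19.5% of the probe sets tested. Of the 20 here, this held for 5. Ptch1 1439663_at, Boc 1427516_a_at and Gas1 1456322_at were among those tested, while Ptch1 1450824_at and Smo 1442215_at were not. What sets replicate 1 apart was not tested.

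**Figure D2:**
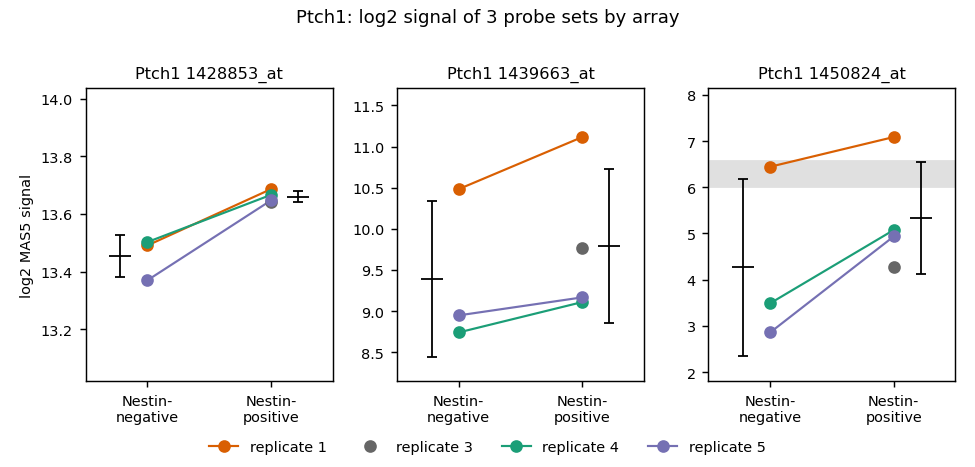
Log2 MAS5 signal of the 3 Ptch1 probe sets (vertical axes, each on its own range) by fraction, with arrays of the same number joined, mean ± SD beside the points, and the range of the 7 array medians in grey. The fractions separate narrowly in 1428853_at, while in the other panels replicate 1 lies apart from the rest.

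Gas1, a membrane-anchored co-receptor that binds Sonic hedgehog, was higher in Nestin-positive cells on its 2 bright probe sets. The brightest, 1416855_at, read 6466, 6143, 9799 and 7528 against 6111, 5428 and 5566, with Nestin-positive replicate 3 only just above Nestin-negative replicate 1. Means were 7484 ± 1653 (SD, n = 4) and 5702 ± 361 (SD, n = 3), a log2 change of 0.37 ± 0.16 (SE) or 1.29-fold that was not called (limma, adjusted p = 0.327). With the replicate block Gas1 rose by 0.46 ± 0.12 (SE) on the log2 scale (limma, adjusted p = 0.0174), and the 3 pairs differed by 0.08, 0.85 and 0.44. This call was lost with the replicate number as a random block (adjusted p = 0.0807) and in the blocked fit over probe sets (adjusted p = 0.0681). Without pair 4, the pair with the largest difference, the blocked change was 0.26 (limma, adjusted p = 0.119), in a fit chosen after seeing the data.

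The next probe set of Gas1, 1448494_at, was steadier. It read 2978, 2693, 3286 and 2891 against 2336, 2021 and 2045, with a wide gap between the fractions. The log2 change was 0.47 ± 0.11 (SE) (limma over probe sets, adjusted p = 0.198) and 0.52 ± 0.11 (SE) with the block (adjusted p = 0.0153), with pair differences of 0.35, 0.70 and 0.50. In blocked fits without each pair, chosen after seeing the data, the log2 change was 0.43 to 0.60 (limma, adjusted p from 0.0019 to 0.0213). These fits hold fewer pairs than the full one, so their p-values rest still more on spread pooled over genes. The exact two-sided permutation p was 0.0286 for this probe set and 0.114 for 1416855_at. The dim 1456322_at, at or above the array median on 3 Nestin-positive arrays and 1 Nestin-negative array, read 71.9 to 118 against 55.4 to 107 and overlapped (log2 change 0.35 ± 0.35 SE). Meningeal fibroblast and pericyte marker sums, given above, overlapped between the fractions but were lower in the Nestin-positive sample of each pair. With the block 4 of 5 and 6 of 8 of these markers fell, and their part in the Gas1 difference was not tested.

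Boc and Cdon, related immunoglobulin-family co-receptors, did not separate the fractions. Boc 1427516_a_at read 3112, 2056, 2116 and 2311 in Nestin-positive and 2348, 1805 and 2256 in Nestin-negative cells. The fractions overlapped, and the log2 change was 0.16 ± 0.17 (SE) with a 95% interval from -0.21 to 0.53 (limma, adjusted p = 0.726). With the replicate block it was 0.22 ± 0.11 (SE), with a 95% interval from 0.001 to 0.45 (limma, adjusted p = 0.223). Within pairs 1, 4 and 5 the log2 difference was 0.41, 0.23 and 0.03. Boc 1426869_at, which read 1915 to 2447 against 1483 to 1982, gave 0.22 ± 0.14 (SE) and overlapped as well, with pair differences of 0.36, 0.37 and -0.04. The last Boc probe set, 1427517_at, read 2.21 to 20.3 and lay below the array median on all 7 arrays.

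Cdon was dim. Its probe set 1434957_at read 142, 111, 134 and 64.5 against 200, 186 and 73.0, below the array median on replicate 5 of both fractions. In each of the 3 pairs the Nestin-positive value was the lower one, with log2 differences of -0.49, -0.47 and -0.18. The overall log2 change of -0.37 ± 0.41 (SE) had a 95% interval from -1.28 to 0.55 (limma, adjusted p = 0.739; 0.387 with the block), an interval that includes a 2-fold lower signal. With 1 array left out it ran from -0.83 (Nestin-negative replicate 5) to -0.11 (Nestin-negative replicate 1). The other Cdon probe set, 1421452_at, read 3.80 to 35.5 and never reached the array median.

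**Figure D3:**
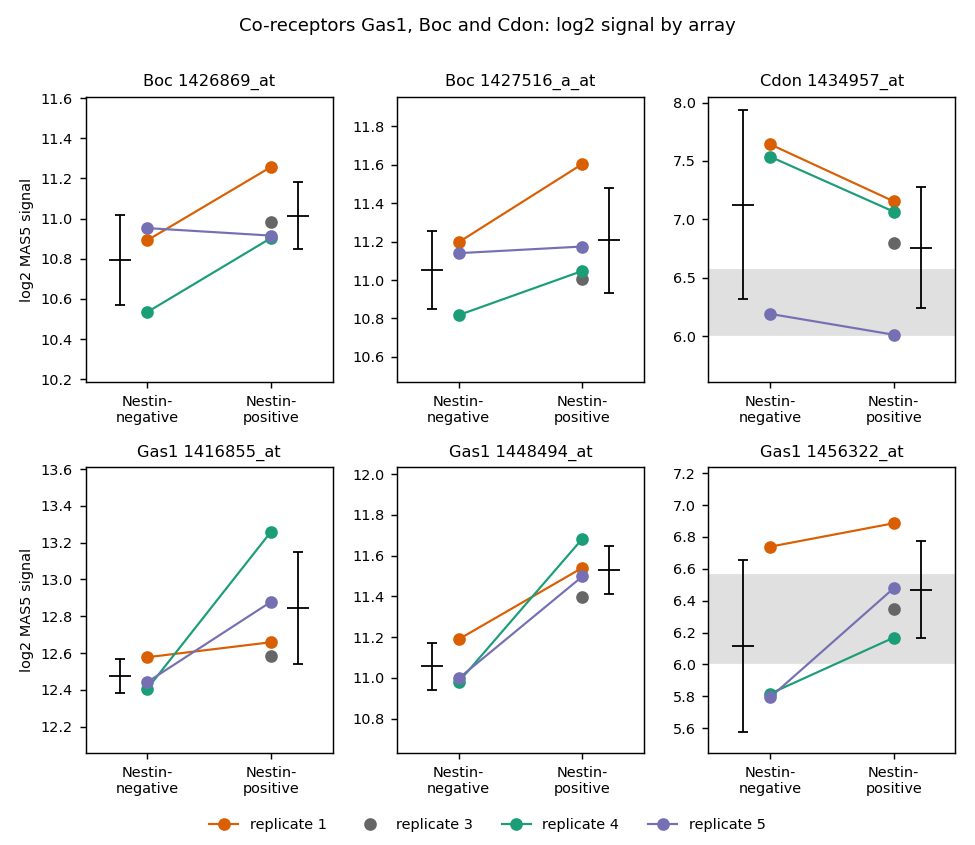
Log2 MAS5 signal of the tested probe sets of Boc, Cdon and Gas1 (vertical axes, each on its own range) by fraction, drawn as for Ptch1 with replicate colours, joined pairs, mean ± SD and the range of array medians in grey. The fractions separate in Gas1 1416855_at and 1448494_at and overlap in the other panels.

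Smo, the transducer that Ptch1 restrains, did not separate the fractions. Its brightest probe set, 1427049_s_at, read 2359, 2180, 2978 and 2931 against 2221, 2590 and 2801. The ranges overlapped almost fully, and the log2 change was 0.04 ± 0.15 (SE), with a 95% interval from -0.29 to 0.36 (limma, adjusted p = 0.943). With the block it was 0.12 ± 0.10 (SE) (adjusted p = 0.557). The second, 1427048_at, read 1146, 958, 1628 and 1309 against 915, 1085 and 1323, with a log2 change of 0.18 ± 0.20 (SE) (adjusted p = 0.894; 0.266 with the block). The third, 1442215_at, read 1.76 to 85.2 and never reached the array median.

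Disp1, which acts in ligand-producing cells, was dim in both fractions. Its tested probe set 1435132_at read 101, 71.2, 59.0 and 71.6 against 91.2, 109 and 99.8, and was at or above the array median on 2 Nestin-positive and 2 Nestin-negative arrays. Nestin-positive replicate 1 fell among the Nestin-negative values while the other 3 lay below them. The log2 change was -0.43 ± 0.28 (SE), with a 95% interval from -1.05 to 0.20 (limma, adjusted p = 0.548; 0.493 with the block). The other probe set, 1434795_at, read 47.5 to 94.1 against 59.9 to 87.7 and was not tested.

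Across the 20 probe sets, 15 passed the filter of a signal at or above the array median on at least 3 arrays, and 5 did not: 1 each of Ptch1, Smo, Boc, Cdon and Disp1. In 7 of the 15 tested, all Nestin-positive arrays lay above all Nestin-negative arrays (4 of Hhip, 2 of Gas1 and 1 of Ptch1). Of all 23585 probe sets tested, 4.66% did so. In 0 of the 15 did all Nestin-positive arrays lie below, where 6.68% of the probe sets tested did so. Of the 7 genes, 1 was called higher without the block and 2 with it, where 0.171% and 3.58% of all genes were. In either fit 0 were called lower, where 0.577% and 6.39% of all genes were, and for 7 genes a count of 0 says little. The median log2 change was 0.16, against -0.03 over all 11089 genes. Blocked and unblocked estimates of each probe set had the same sign in all 15 tested, and no test of the members against other genes was made.

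**Figure D4:**
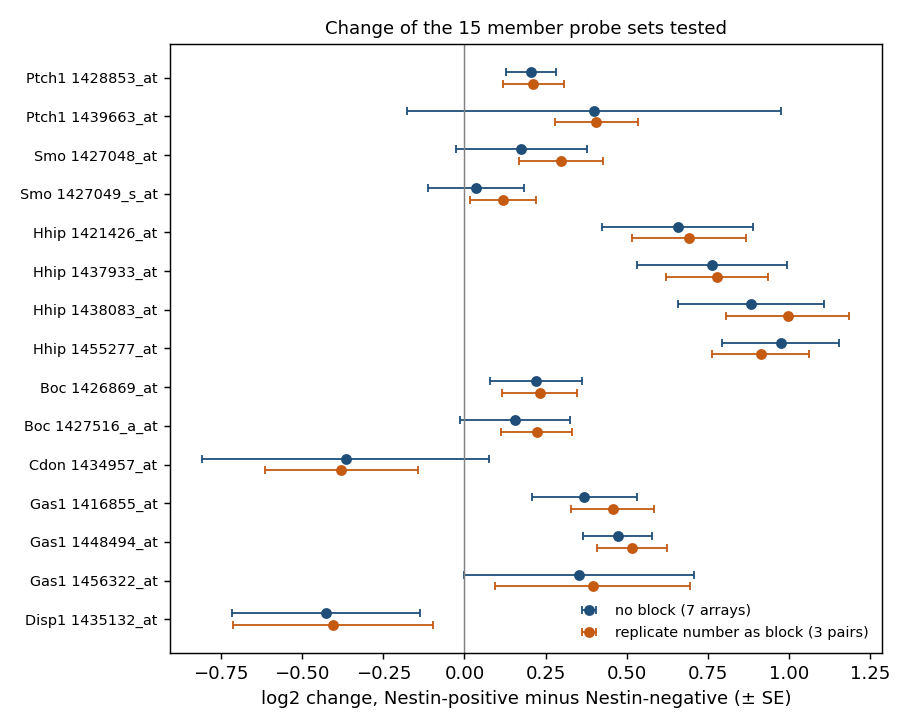
Log2 change (horizontal axis, Nestin-positive minus Nestin-negative) of the 15 probe sets tested, with bars for ± SE, from the fits over all probe sets, without a block (7 arrays) in blue and with the replicate block in orange. Hhip lies farthest to the right, Gas1, Ptch1, Boc and Smo are also above 0, and Cdon and Disp1 lie below 0 with wide bars.

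The rest of the pathway was taken from lists by role. Of 47 other pathway genes listed, 43 were on the array by name and 35 were tested. Without the block 0 rose and 1 fell, where 0.171% and 0.577% of all genes were called higher and lower. With it 7 rose and 3 fell, where 3.58% and 6.39% of all genes did. The median log2 change was -0.02, beside -0.03 over all genes. The gene that fell in both fits was Disp2, a relative of Disp1, at 247 against 568 (log2 change -1.24 ± 0.21 SE, limma, adjusted p = 0.0379). Its adjusted p was above the threshold without any of 5 arrays (Nestin-positive replicates 1 and 5 and Nestin-negative replicates 1, 4 and 5), and after quantile normalization.

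The ligand genes Shh, Ihh and Dhh, and Scube1 and Scube3, whose products help to release ligand, lay below the array median on all 7 arrays on every probe set. Hhat, the acyltransferase that modifies the ligand, differed by -0.34 ± 0.39 (SE). Among other surface proteins, the proteoglycan gene Gpc3, whose product binds Hedgehog ligand and competes with Ptch1, rose with the block (0.54 ± 0.12 SE, limma, adjusted p = 0.0039; 0.230 without it). Lrp2, an endocytic receptor, was below the array median on all arrays.

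Among the genes of Smo traffic and relay, Efcab7, a scaffold of the ciliary complex that holds Evc and Evc2, rose with the block (0.42 ± 0.13 SE, adjusted p = 0.0390), as did Tulp3, which brings receptors into the cilium (0.50 ± 0.13 SE, adjusted p = 0.0168). Arrb1, a beta-arrestin, fell with it (-0.65 ± 0.17 SE, adjusted p = 0.0185). Evc and Evc2 differed by 0.48 ± 0.17 and 0.39 ± 0.15 (SE) without overlap of the fractions and were not called in either fit. Without the block no gene of this group passed limma's adjusted threshold, and 5 of the 11 had an unadjusted p under 0.05, as did 1599 of all 11089 genes.

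Of the Gli factors, Gli3, mostly a repressor, rose with the block (0.66 ± 0.16 SE, limma, adjusted p = 0.0108; 0.122 without it). Gli1, a target and activator, differed by 0.34 ± 0.12 (SE) with the block (adjusted p = 0.0711) and by 0.19 ± 0.18 (SE) without it. Gli2, the main activator, differed by 0.04 ± 0.11 (SE) and Sufu, which restrains the Gli proteins, by -0.24 ± 0.15 (SE), neither called. The other 10 target genes tested beside Ptch1 and Hhip had a median log2 change of 0.08. With the block Ccnd1, a cyclin of cell cycle entry (0.34 ± 0.10 SE), Atoh1, the lineage factor (0.35 ± 0.10 SE), and the progenitor surface protein gene Prom1 (0.56 ± 0.10 SE) rose, and the growth factor gene Igf2 fell (-1.74 ± 0.14 SE). Hhip thus changed by more than any other target that rose, with no test of that difference made.

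**Figure D5:**
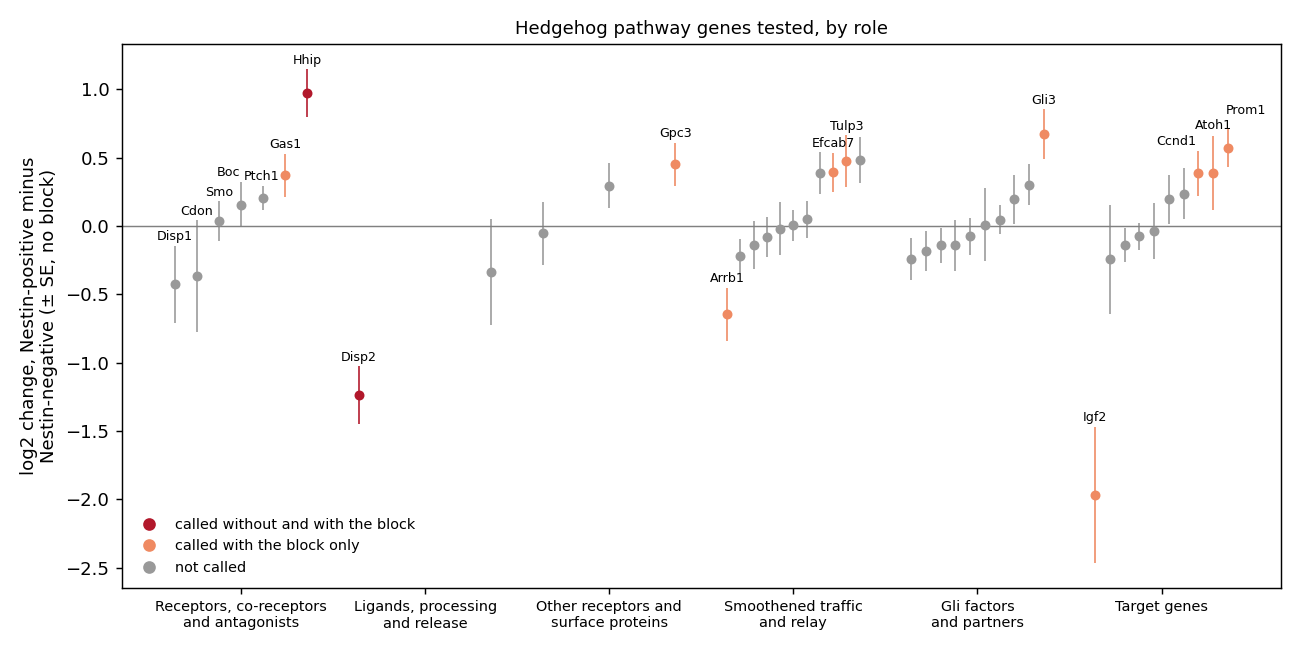
Log2 change of each pathway gene tested (vertical axis, Nestin-positive minus Nestin-negative, ± SE of the fit without a block), grouped by role along the horizontal axis, with Gli1 shown in both its groups. Red marks the 2 genes called without and with the replicate block (Hhip and Disp2), orange those called with the block alone, grey those not called; only the 7 members and called genes are named.

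The genes whose log2 signals followed each member most closely over the 7 arrays were sought among the other 11088 genes by Pearson correlation, as a description of arrays that share depth and preparation. For Hhip they were Poglut3 (r = 0.997), Btaf1 (r = 0.993) and Dsn1 (r = 0.989). For Ptch1 they were Pth2 (0.981), Pvt1 (0.977) and Rbms1 (0.975), and for Gas1 Tmem43 (0.982), Fam181b (0.965) and Cmtm4 (0.959). Smo was followed by Drg2, Rnf26 and Srsf2 (0.982 to 0.987), and Boc by Acad8, Tmem81 and Phf12 (0.931 to 0.974). Cdon was followed by Synpr, Wdr25 and Opcml (0.946 to 0.984), and Disp1 by Pnmt, Ankrd13d and Slc11a2 (0.936 to 0.950). These are the highest of many correlations over only 7 arrays, and no gene was among the 3 closest of more than 1 member.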

How the data were processed

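The authors deposited linear MAS5 intensity per probe set (MAS5 per the submitters' processing notes, which give no version). The mean without the lowest and highest 2% was 500 on all 7 deposited arrays, so each array was scaled to 1 target. MAS5 subtracts mismatch signal, which makes ratios of dim values noisy. Present calls were not used here.

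Samples were grouped by title. Of 45101 probe sets, 64 controls were left out; 34945 had 1 gene, 932 several and 9160 none, with symbols updated by Entrez ID (34741 matched) to RefSeq GRCm38.p6. Log2 intensity was taken without a pseudocount. Probe sets at or above the array median (64.4 to 94.5) on at least 3 arrays were kept, the brightest standing for its gene. limma 3.58.1 (R 4.3.3) compared the groups (intensity trend, two-sided, Benjamini-Hochberg over all genes or probe sets), tested on simulated data; exact tests used scipy 1.17.1. The number of arrays limits the precision.

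Replicates 1, 4 and 5 occur in both groups. Deviations of same-numbered arrays from their group means correlated across genes with r = 0.71, 0.39 and 0.47, and those of other pairs with -0.60 to 0.19. The numbers were therefore treated as pairs, from the data and not the labels (rule: r over 0.1). Nestin-negative replicate 5 also passed this rule with Nestin-positive replicates 4 (r = 0.19) and 3 (r = 0.14), so it does not single out equal numbers. Deviations from a group mean sum to 0, so these correlations are not independent of each other. That equal numbers mark a shared preparation thus remains an assumption of the blocked fit. The blocked fit has 2 residual degrees of freedom per gene, 19.8 after moderation, so its p-values rest mostly on spread pooled over genes. Blocked fits without a pair have fewer residual degrees of freedom and rest on the pooled spread still more. Alternatives were the block (fixed or random), filters, a pseudocount of 50, raising dim values to the array median, quantile normalization, no intensity trend, the mean of probe sets and leaving out each array. All 7 member genes are named, with every probe set. Of the pathway lists, genes called in either fit and Gli1, Gli2, Gli3 and Sufu were to be named (1 other gene of that rule is not reported here); Hhat, Evc, Evc2 and the listed genes below the array median on all arrays were added after their values were seen, and the rest are given by counts, and of correlated genes the 3 closest to each member. Markers are given mainly as sums. Members and lists were chosen with earlier results of these data known.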

Additional observations from a re-analysis of the deposited data

How the results depend on the processing

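The number of member genes called higher, 1 in the main setting, was 0 with no filter, with quantile normalization, without the intensity trend, with the mean of probe sets, and, chosen after seeing the data, without both arrays of replicate 1; it was 0 with each array left out (0 to 0). It was 2 with the replicate block, also with quantile normalization or without pair 1 or 5 (chosen after seeing the data), and 1 without pair 4. Of member probe sets 0 were called higher, 0 with each array left out, 5 with the replicate block, 4 with the number as a random block, and, chosen after seeing the data, 6, 5 and 4 in the blocked fit without pairs 1, 4 and 5 and 5 with quantile normalization. No member was called lower in any setting. Among the other pathway genes, 0 higher and 1 lower became 7 and 3 with the replicate block, 4 and 3 with the random block, and, chosen after seeing the data, 3 and 2, 4 and 3, and 7 and 3 in the blocked fit without pairs 1, 4 and 5, and 6 and 2 with quantile normalization. The 1 lower, Disp2, became 0 with no filter, quantile normalization, no trend, the mean of probe sets or neither array of replicate 1, and 0 to 1 with each array left out. Over all genes the 83 calls became 0 to 93 with each array left out, 22 with quantile normalization, 52 with no filter, 43 with the mean of probe sets, 126 with the pseudocount, 12 without both arrays of replicate 1, 854 with the random block, 1106 with the replicate block, and 0 without the intensity trend (limma, 1573 at an unadjusted p under 0.05).

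The sign turned for uncalled values alone. The log2 change of Smo 1427049_s_at, 0.04 in the main setting, ran from -0.058 to 0.12 with each array left out (below 0 when replicate 4 or 5 of the Nestin-positive or 1 of the Nestin-negative fraction was absent) and was -0.013 without both arrays of replicate 1. That of Ptch1 1439663_at, 0.40 in the main setting, ran from -0.044 (Nestin-positive replicate 1 absent) to 0.94 (Nestin-negative replicate 1 absent). The log2 change of Hhip stayed between 0.71 and 1.11 in all settings on its brightest probe set; over its other probe sets the lowest value was 0.42 (1421426_at, Nestin-negative replicate 5 absent, against 0.66 in the main setting) and the highest 1.24 (1438083_at, blocked fit without pair 4). With each array left out, Boc ran from 0.024 to 0.23 and Gas1 from 0.23 to 0.46, uncalled throughout. The Gas1 call of the blocked fit was lost with the random block, which called 1 member gene. The causes of the lost calls were not tested. Signals of Cdon, Disp1 and 1 probe set each of Ptch1 and Gas1 near the array median limit what can be said of them.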
